A study of Mus musculus with 6 samples.

Results

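The genes of the 3 TGF-β ligands, the 3 TGF-β receptors and the 4 latent TGF-β binding proteins were examined in cultures labelled as skin endothelial cells (ECs) and kept in normal or high glucose. The 10 genes, Tgfb1, Tgfb2, Tgfb3, Tgfbr1, Tgfbr2, Tgfbr3, Ltbp1, Ltbp2, Ltbp3 and Ltbp4, were taken by name out of 55487 gene identifiers in the deposited count table, by their place in the pathway and with earlier results of these data known. Bulk RNA-sequencing covered 6 samples, labelled as primary ECs from the skin of C57BL/6 mice, of which 3 were cultured with 5 mmol/L glucose and 3 with 20 mmol/L glucose for 48 hours. The labels give no other treatment for either group, and the skin came from 4 to 6 mice aged 2 to 3 months, whose cells were enriched with CD31 beads and could be passaged. The study counts its replicates as mice, but the labels describe a preparation from several mice and do not say whether replicates were prepared separately. The p-values measure only the spread between these samples, which may be technical. Several defining endothelial markers were near 0 and fibroblast markers abundant in all 6 samples, so the label is in doubt and the samples are called cultures here.

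TGF-β ligands are secreted as latent complexes, in which the mature dimer stays bound to its own propeptide. Most latent TGF-β binding proteins (LTBPs) are matrix proteins that bind this complex covalently and anchor it to fibrillin and fibronectin, and integrins or proteases then release the active ligand. The free ligand brings together the type II receptor TGFBR2 and the type I receptor TGFBR1, which phosphorylates SMAD2 and SMAD3, while TGFBR3 (betaglycan) is a co-receptor that presents ligand and is needed most for TGF-β2. In skin the pathway is known for its control of matrix production by fibroblasts, and in ECs for its balance with signaling through endoglin and the type I receptor ACVRL1.

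In high glucose, Tgfb2 rose the most of the 10 genes, to 2.48-fold its level in normal glucose, and Ltbp3 and Tgfbr3 rose by 39.1% and 22.6%. Ltbp2, Tgfbr2, Ltbp1 and Tgfb3 had smaller rises, whereas Tgfb1, Tgfbr1 and Ltbp4 did not pass the test. Thus 7 of the 10 genes were higher at an adjusted p under 0.05 in edgeR's quasi-likelihood test, beside 16.9% of the 19015 genes tested, and 0 were lower, beside 14.5%. At an unadjusted p under 0.05 the same test also gave 0 lower genes, and so did DESeq2. The median log2 fold change was 0.21 for the 10 genes and 0.0062 for all genes tested. In 7 of the 10 genes, every high glucose sample lay above every normal glucose sample, a pattern seen in 25.1% of all tested genes. They were the 7 genes called higher, and the calls rest on the same values, so the pattern adds no separate support. The count of 7 genes called higher depended on the scaling and on single samples. It fell to 3 when samples were scaled by library size alone and to 3 or 4 without high glucose replicate 1 or 3. Library size scaling moved the median of all genes from 0.006 to -0.109 on the log2 scale, so that 1 of the 10 genes, Tgfb1, then passed the test as lower. Only Tgfb2, Tgfbr3 and Ltbp3 passed the test as higher in each of the 17 alternative fits that were run.

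**Figure D1:**
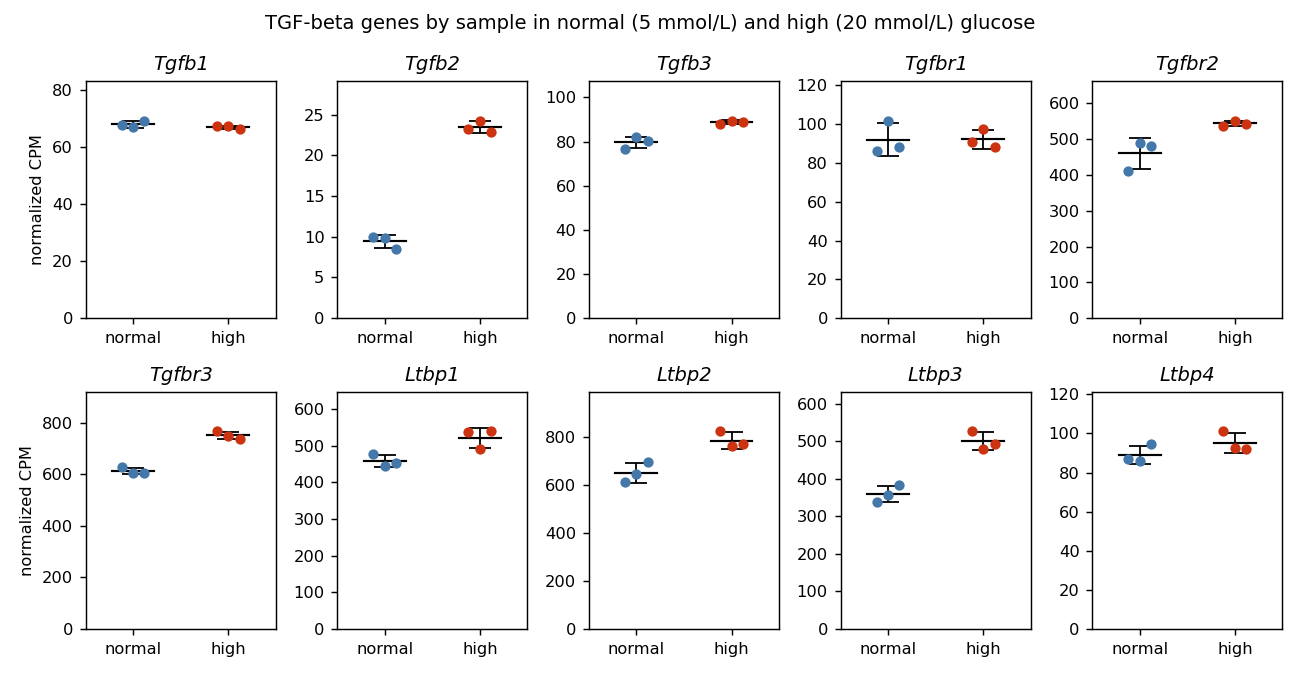
Normalized CPM (read counts scaled to the same library size in each sample) of the 10 genes, 1 panel per gene, with the vertical axis from 0, in the 3 normal glucose samples (blue) and the 3 high glucose samples (red). Horizontal lines are group means and bars are ±1 SD. The high glucose points lie clearly apart in Tgfb2 and Ltbp3, and the groups overlap in Tgfb1, Tgfbr1 and Ltbp4.

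Total counts per sample lay between 120192466 and 146881356, and each of the 10 genes had at least 1095 counts in every sample. Several defining endothelial genes were near 0 in these cultures. Of 15 endothelial markers, Tie1, Emcn, Cldn5, Sox17 and Robo4 had under 10 counts in each sample, and Pecam1, which encodes CD31, had between 9 and 19. Flt1 was the most abundant of the 15, at 55.29 ± 2.06 CPM in normal and 38.4 ± 0.153 CPM in high glucose (SD, n = 3). Egfl7 followed at 11.09 ± 0.74 and 9.443 ± 0.153 CPM, and Kdr at 4.955 ± 0.457 and 5.499 ± 0.228 CPM. The summed level of the 15 markers was 74.3 to 77.7 CPM in normal glucose and 57.7 to 58.5 CPM in high glucose. Flt1 made up most of this sum and of its fall. The 2 markers called higher were Tek and Erg, the 3 lower were Flt1, Egfl7 and Cdh5, and 5 were tested but not called. Of these, Erg was near 0, with between 2 and 15 counts per sample. Tek, at 1.29 and 2.04 CPM in normal and high glucose, and Cdh5, at 1.80 and 0.876 CPM, were also low. All 15 fibroblast markers were tested. Their sum was 40650 to 44010 CPM in normal glucose and 73550 to 78310 CPM in high glucose, with 12 genes higher and 3 lower (S100a4, Twist2 and Thy1). Of 12 smooth muscle and pericyte markers, 2 were higher, 6 were lower and Kcnj8 was too low to test. Their sum was 1207 to 1292 CPM in normal glucose and 1090 to 1160 CPM in high glucose. Macrophage markers summed to 17.5 to 19.8 CPM in normal and 26.9 to 27.8 CPM in high glucose, where Cd14 was the 1 marker that rose and 3 fell, with Ptprc, Adgre1, C1qa, C1qb and C1qc not tested. Keratinocyte markers summed to at most 5.22 CPM in any sample, and Krt5 was the 1 of 4 tested that rose. Single genes also weighed on other sums. The macrophage sum rose through Cd14, whose mean went from 9.47 CPM in normal to 21.1 CPM in high glucose. Col3a1, at 12420 and 32510 CPM, made up most of the rise in the fibroblast sum. The fibroblast and macrophage sums were higher and the endothelial and smooth muscle sums lower in high glucose, without overlap, while the keratinocyte sums overlapped. The part of these shifts in the rises described here was not tested, and in bulk samples fewer cells of a type cannot be told apart from less RNA per cell.

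The 3 ligands share a receptor complex but behaved differently. Tgfb2 encodes the ligand that binds TGFBR2 weakly without betaglycan. In GRCm38, the build to which the authors aligned the reads, it lies on the minus strand of chromosome 1 from 186622792 to 186705989. Its normalized CPM was 10.0, 9.83 and 8.55 in normal glucose replicates 1, 2 and 3 and 23.2, 24.3 and 22.8 in high glucose replicates 1, 2 and 3. Every high glucose sample was more than 10 CPM above the highest normal glucose sample. The log2 fold change was 1.31 (standard error 0.0722, adjusted p = 6.4e-07, edgeR), with a 95% confidence interval of 1.15 to 1.47. It ranked 229th by size among the 3212 genes called higher, whose median was 0.38. The value stayed between 1.19 and 1.33 in all alternative fits.

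Tgfb1 encodes the most widely expressed ligand and lies on the plus strand of chromosome 7 from 25687002 to 25705077. It measured 67.5, 66.8 and 69.2 CPM in normal glucose and 67.2, 67.1 and 66.1 CPM in high glucose. The groups overlapped, and the log2 fold change of -0.022 had a 95% confidence interval of -0.13 to 0.084 (adjusted p = 0.766, edgeR). The lower end of that interval corresponds to a level of 0.916 of that in normal glucose, and a fall under library size scaling, of -0.137 (adjusted p = 0.0414), was the 1 exception to its not passing the test. Tgfb3, on the minus strand of chromosome 12 from 86056745 to 86079041, encodes the ligand known from palate fusion and scar formation. Its level was 76.8, 81.9 and 80.1 CPM in normal glucose and 88.1, 89.5 and 88.9 CPM in high glucose. The groups did not overlap, but the rise was small, with a log2 fold change of 0.16 (adjusted p = 0.0335, standard error 0.0494, edgeR). It did not pass the test in 11 of 17 alternative fits, among them those without normal glucose replicate 1 or 3 (adjusted p = 0.0696 and 0.0963) and without high glucose replicate 1, 2 or 3 (adjusted p = 0.139, 0.129 and 0.168), and library size scaling lowered it to 0.043. The exons of Tgfb2 share 124 bases with Gm29491, and those of Tgfb3 share 163 with Gm37804 and 257 with Gm48008, all on the opposite strand and with at most 8 counts in any sample.

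The start regions of the ligand that rose most and of the ligand whose groups overlapped are given for comparison. They are the 250 bases before the RefSeq start of each gene (GRCm38.p6), for Tgfb2 chr1:186705990-186706239 on the minus strand and for Tgfb1 chr7:25686752-25687001 on the plus strand, written 5′ to 3′ along the gene, with every match to a searched motif in capitals.
Tgfb2: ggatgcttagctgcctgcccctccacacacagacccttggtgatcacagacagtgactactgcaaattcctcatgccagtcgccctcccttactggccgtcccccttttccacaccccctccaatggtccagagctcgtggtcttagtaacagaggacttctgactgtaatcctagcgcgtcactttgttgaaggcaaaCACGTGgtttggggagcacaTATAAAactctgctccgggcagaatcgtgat
Tgfb1: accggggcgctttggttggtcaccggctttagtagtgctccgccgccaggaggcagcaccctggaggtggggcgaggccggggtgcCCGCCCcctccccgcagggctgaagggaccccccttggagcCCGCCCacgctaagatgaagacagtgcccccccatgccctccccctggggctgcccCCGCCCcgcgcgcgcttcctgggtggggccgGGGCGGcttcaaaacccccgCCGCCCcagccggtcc
The motifs searched on both strands were the E-box CACGTG, the cyclic AMP response element TGACGTCA, the AP-1 site TGANTCA, the CAGA box CCAGACA, the GC box GGGCGG and the TATA box TATAAA. In the Tgfb2 region an E-box began 51 bases before the start and a TATA box 31 bases before it, and these do not overlap. Among 32851 start regions of the same length, 6.02% held the E-box and 12.4% the TATA box. The Tgfb1 region held 5 GC boxes, a motif found in 32.7% of all regions, and had a GC content of 75.2% against 53.6% for Tgfb2. RefSeq start regions were found for 8 of the 10 genes, in 12 regions, and not for Tgfb3 and Tgfbr3. Of these 12, 1 held an E-box and 1 a TATA box, both that of Tgfb2, and 6 held a GC box, 1 each for Tgfb1, Tgfbr1 and Ltbp2 and 3 for Ltbp4. The Ltbp4 regions chr7:27333649-27333898 and chr7:27333664-27333913 overlap over most of their length and share most of their matches. The cyclic AMP response element, found in 1.55% of all regions, was present in 1 of the 2 Ltbp1 regions, beginning 73 bases before the start. The CAGA box and the AP-1 site, found in 5.01% and 6.75% of all regions, had 0 matches in the 12 regions. A match describes the letters in this window and was not tested as a binding site.

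The 3 receptor genes were all abundant. Tgfbr3 encodes betaglycan and lies on the minus strand of chromosome 5 from 107106570 to 107289629. It measured 626, 606 and 606 CPM in normal glucose and 767, 748 and 738 CPM in high glucose. The groups were well separated, with a log2 fold change of 0.29 (adjusted p = 0.00107, standard error 0.0481, edgeR). It passed the test in all alternative fits, and library size scaling gave the lowest value, 0.18 (adjusted p = 0.014). Its exons share 297 bases with Gm43422 on the same strand, which had between 46 and 129 counts per sample, few beside at least 77561 for Tgfbr3.

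Tgfbr2, the gene of the type II receptor that binds ligand first, lies on the minus strand of chromosome 9 from 116084293 to 116175360. Its level was 412, 488 and 480 CPM in normal glucose and 537, 552 and 543 CPM in high glucose. Normal glucose replicate 1 lay below the other two, while the high glucose samples were close together and all above normal glucose. The log2 fold change was 0.24 (standard error 0.0673, adjusted p = 0.0205, edgeR). The call was lost without high glucose replicate 1, 2 or 3 (adjusted p = 0.0771, 0.089 and 0.0884), with library size scaling (0.127, adjusted p = 0.167) and without a filter on low counts (adjusted p = 0.0734). Without normal glucose replicate 1 the value was 0.15. Tgfbr1, the gene of the type I receptor kinase, lies on the plus strand of chromosome 4 from 47353222 to 47414931. It measured 85.9, 102 and 88.2 CPM in normal glucose and 90.7, 97.5 and 88.3 CPM in high glucose. The groups overlapped, and the log2 fold change was 0.003 with a 95% confidence interval of -0.16 to 0.16 (adjusted p = 0.979, edgeR), so that a change of the size seen in Ltbp3 lay outside the interval and one like that of Tgfb3 did not.

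**Figure D2:**
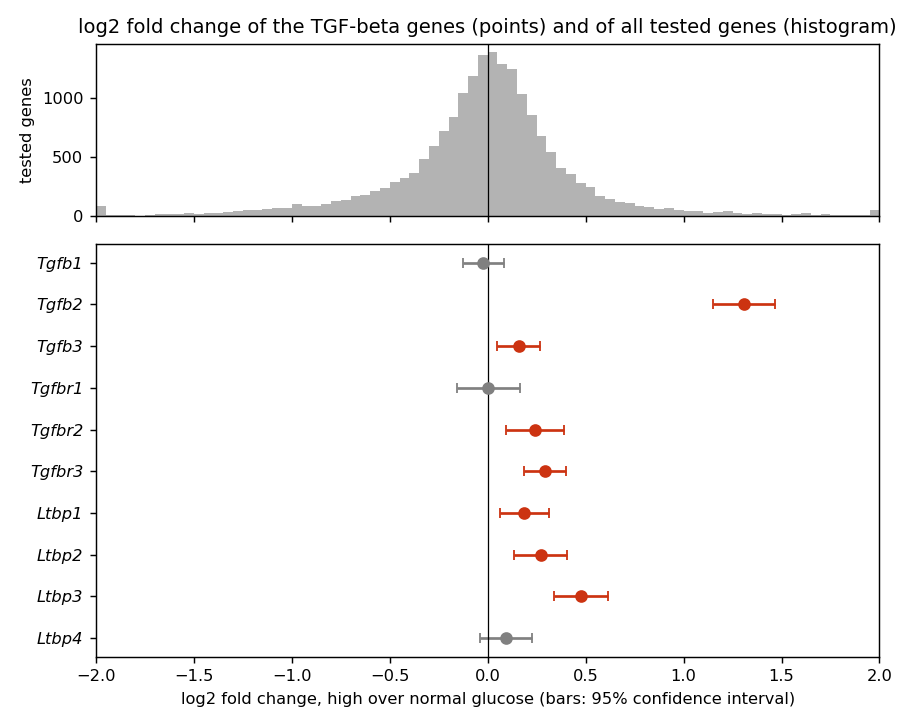
Log2 fold change (high over normal glucose) of the 10 genes, with bars for the 95% confidence interval (below; red, adjusted p under 0.05 in edgeR's quasi-likelihood test; grey, not), and the distribution of log2 fold changes over all 19015 tested genes (above; values past the ends of the axis are counted in the outermost bins). Tgfb2, at 1.31, lies apart from the other 9 genes, whose values run from -0.022 to 0.48.

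The LTBP genes showed 1 clear rise and 2 smaller ones. Ltbp3, on the plus strand of chromosome 19 from 5740904 to 5758532, encodes a binder of latent TGF-β that is known from bone and tooth development. It measured 339, 356 and 383 CPM in normal glucose and 526, 480 and 493 CPM in high glucose. The groups lay well apart. The log2 fold change was 0.48 (standard error 0.0613, adjusted p = 0.000218, edgeR), and it stayed between 0.33 and 0.51 in all alternative fits.

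Ltbp2, on the minus strand of chromosome 12 from 84783212 to 84876532, encodes the family member that does not bind latent TGF-β and is found with elastic microfibrils. Its level was 612, 648 and 696 CPM in normal glucose and 825, 762 and 771 CPM in high glucose. All high glucose samples were above normal glucose, with a log2 fold change of 0.27 (adjusted p = 0.00726, standard error 0.0612, edgeR). The call was lost without high glucose replicate 1 (0.22, adjusted p = 0.0612) and with library size scaling (0.156, adjusted p = 0.067), and removing the trend on GC content and length within each library lowered the value to 0.161 (adjusted p = 0.0114). Its exons share 764 bases with the antisense gene D030025P21Rik, which had between 411 and 637 counts and moved the other way, with a log2 fold change of -0.45 (adjusted p = 0.00309, edgeR). No source says whether reads were counted by strand.

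Ltbp1, on the plus strand of chromosome 17 from 75005568 to 75392512, encodes the best studied binder of the latent complex. It measured 477, 446 and 453 CPM in normal glucose and 536, 491 and 540 CPM in high glucose. The groups did not overlap, although high glucose replicate 2 came close to normal glucose replicate 1. The log2 fold change of 0.19 (adjusted p = 0.0294, standard error 0.0566, edgeR) fell to 0.056 (adjusted p = 0.561) once the trend of each library on GC content and length was removed, and to 0.072 (adjusted p = 0.357) with library size scaling. It also missed the threshold without normal glucose replicate 2 or 3 (adjusted p = 0.0811 and 0.0991) and without high glucose replicate 1 or 3 (adjusted p = 0.167 and 0.185). Ltbp4, on the minus strand of chromosome 7 from 27305136 to 27337692, encodes a binder with a role in elastic fiber assembly. It measured 87.0, 86.1 and 94.3 CPM in normal glucose and 101, 92.4 and 91.9 CPM in high glucose, and the groups overlapped. Its log2 fold change of 0.094 had a 95% confidence interval of -0.04 to 0.23 (adjusted p = 0.266, edgeR), and its sign turned with library size scaling (-0.021) and with the GC and length trend removed (-0.009).

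For each of the 7 genes called higher, the two-sided exact permutation test of the 6 values gave p = 0.1, the smallest value that 3 samples against 3 allow. Tgfb1, Tgfbr1 and Ltbp4 gave p = 0.4, 0.9 and 0.3 in the same exact test.

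**Figure D3:**
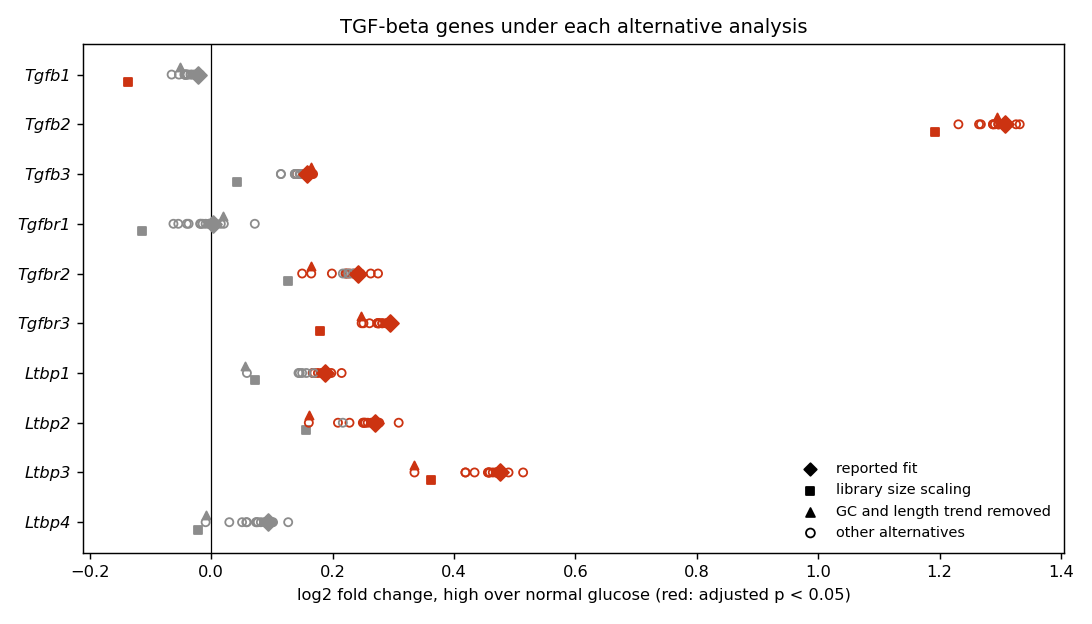
Log2 fold change (high over normal glucose) of each gene in the reported fit (diamond), with library size scaling (square), with the GC and length trend removed (triangle) and in the other alternative fits (circles). Red marks an adjusted p under 0.05. Tgfb2, Tgfbr3 and Ltbp3 are red throughout, and library size scaling (squares) lies below the reported fit for each gene.

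Levels can be set side by side between genes only per length, and the result depended on which length was used. With the length of all merged exons, the level per kilobase in normal glucose was 23.5 ± 0.771 CPM for Tgfb3, 13.5 ± 0.24 for Tgfb1 and 1.63 ± 0.137 for Tgfb2 (SD, n = 3). Tgfb1 has annotated transcripts that retain intron sequence, and with the transcript of the longest coding sequence its length fell from 5042 to 2175 bases and its level rose to 31.2 ± 0.557 CPM per kilobase, above that of Tgfb3. The order of Tgfb1 and Tgfb3 is therefore not settled by these counts, whereas Tgfb2 was the lowest ligand with both lengths. Its share of the summed ligand level per kilobase was 4.24% ± 0.396 in normal glucose and 9.29% ± 0.225 in high glucose with merged exons, and 4.73% ± 0.44 and 10.6% ± 0.25 with the coding transcripts (SD, n = 3). Tgfb2 thus remained a minor ligand transcript in both groups.

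Among the receptors, Tgfbr3 had the highest level per kilobase in normal glucose, at 93.6 ± 1.80 CPM with merged exons, followed by Tgfbr2 at 56.2 ± 5.14 and Tgfbr1 at 14.1 ± 1.32 (SD, n = 3). This order held in both groups and with both lengths, and neighbors in it did not overlap. The share of Tgfbr3 in the summed receptor level was 57.2% ± 2.62 in normal and 58.8% ± 0.748 in high glucose. Among the LTBP genes, Ltbp2, whose product does not bind latent TGF-β, was highest per kilobase with both lengths. With merged exons it measured 79.7 ± 5.13 CPM in normal and 96.1 ± 4.13 in high glucose, and Ltbp4 was lowest, at 13.8 ± 0.701 and 14.7 ± 0.802 (SD, n = 3). Ltbp1 (42.9 ± 1.51) and Ltbp3 (39.6 ± 2.42) overlapped in normal glucose. In high glucose Ltbp3 (55.1 ± 2.64) lay above Ltbp1 (48.8 ± 2.56) in all samples, with both lengths (SD, n = 3). The share of Ltbp3 in the summed level of all LTBP genes, Ltbp2 included, went from 22.5% ± 0.483 to 25.7% ± 0.175 with merged exons.

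**Figure D4:**
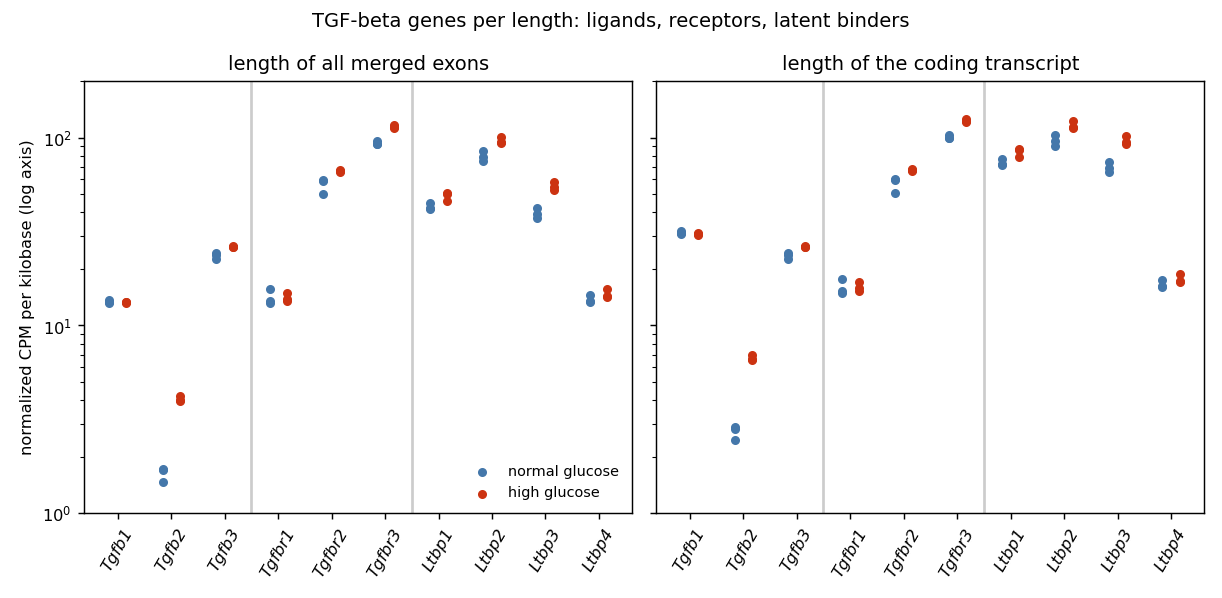
Level of each gene per kilobase (normalized CPM per kilobase, log axis) in every sample, with the length of all merged exons (left) or of the transcript with the longest coding sequence (right). Blue points are normal glucose and red points high glucose, and grey lines part ligands, receptors and latent binders. Tgfb2 is the lowest ligand with both lengths, and Tgfb1 and Tgfb3 change places.

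The genes whose values followed Tgfb2 most closely over the 6 samples were Deptor, which encodes an inhibitor of mTOR, St6galnac5, which encodes a sialyltransferase, and Pik3r1, which encodes a regulatory subunit of PI3-kinase. Their Pearson correlations with Tgfb2 on the log2 CPM scale were 0.9985, 0.9982 and 0.9979. Their log2 fold changes were 1.21, 1.21 and 0.68. These correlations describe 6 points that fall into 2 groups, and 96 of the 10011 genes compared had a value over 0.99.

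The other genes of the pathway were described in 7 lists with 97 genes, of which 93 were tested. At an adjusted p under 0.05 from edgeR's quasi-likelihood test, 45 were higher, 20 were lower and 28 did not pass, beside 16.9% of all tested genes called higher and 14.5% lower. Their median log2 fold change was 0.19.

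Genes for matrix anchors and partners of the latent complex moved up or did not pass. Of 11 tested, 8 were higher and 0 lower (0 lower at an unadjusted p under 0.05 and with DESeq2), with a median log2 fold change of 0.49. Without normal glucose replicate 1, 1 was lower. Fbn2, which encodes fibrillin-2, a microfibril protein, went from 13.9 ± 1.14 to 62.7 ± 3.30 CPM, or by 2.18 on the log2 scale (adjusted p = 3.82e-08, edgeR). Pcsk6, the gene of a proprotein convertase, was low and went from 0.493 ± 0.0651 to 2.05 ± 0.034 CPM, or by 2.06 on the log2 scale (adjusted p = 2.11e-06, edgeR). Fn1 (fibronectin), Lrrc32 (a cell surface anchor of latent TGF-β) and Nrros (its relative in myeloid cells) did not pass, with log2 fold changes of 0.235, -0.12 and -0.02.

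The genes listed as activators of latent TGF-β were divided, and whether each product acts as an activator in these cultures was not tested. Of 13 tested, 3 were higher and 6 lower, with a median of -0.18. Htra1, the gene of a secreted serine protease, and Bmp1, that of a procollagen protease which also cleaves LTBP1, rose by 0.58 and 0.37 on the log2 scale (adjusted p = 2.13e-05 and 0.000456, edgeR). Mmp14 was the other of the 3, with 0.23. Tll1, a relative of Bmp1, and Mmp9, a gelatinase, fell by 1.17 and 1.16 on the log2 scale, from 8.99 ± 0.807 to 4.00 ± 0.251 CPM and from 2.54 ± 0.14 to 1.13 ± 0.147 CPM (SD, n = 3). Thbs1, the gene of thrombospondin-1, was the most abundant of the list and was also lower, from 9330 ± 241 to 6643 ± 257 CPM, or by -0.49 on the log2 scale (adjusted p = 5.8e-05, edgeR). Among integrin β subunit genes, Itgb3 and Itgb1 were lower, with log2 fold changes of -0.56 and -0.25. Itgb5 and Itgb8 had values of 0.12 and 0.24 and did not pass. Itgb6 had between 2 and 12 counts and Plg at most 3 in any sample, and these 2 were not tested.

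The list of binding antagonists held 8 genes, and not all of their products are plain antagonists of TGF-β. Of these 8, 7 were higher and 0 lower (0 at an unadjusted p under 0.05 and with DESeq2), with a median of 0.47. Fmod, the gene of the small proteoglycan fibromodulin, went from 6.81 ± 0.275 to 12.1 ± 0.422 CPM, and Lrg1, the gene of a secreted glycoprotein that modifies TGF-β signaling in ECs, from 47.7 ± 2.27 to 78.5 ± 2.18 CPM (SD, n = 3). Their log2 fold changes were 0.83 and 0.72 (adjusted p = 1.3e-05 and 5.7e-06, edgeR). Fst, which encodes the activin binder follistatin, did not pass, with 0.14. With library size scaling, and without high glucose replicate 1 or 3, 4 of the 8 passed as higher.

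Among 10 co-receptors, other type I receptors and receptor partners, 6 were higher and 3 lower, with a median of 0.27. Acvrl1, the type I receptor gene of ECs named above, went from 41.0 ± 0.474 to 58.6 ± 1.21 CPM and Nrp1, a co-receptor also for VEGF, from 84.3 ± 7.70 to 128 ± 1.23 CPM (SD, n = 3). Their log2 fold changes were 0.52 and 0.60 (adjusted p = 2.37e-05 and 8.32e-05, edgeR). The 3 lower genes were Tgfbr3l, a relative of Tgfbr3, at -0.90, Cd109, a co-receptor that limits TGF-β signaling, at -0.81, and Fkbp1a, whose product holds the type I receptor inactive, at -0.17. Without high glucose replicate 1, 1 gene of the list was lower. With library size scaling 4 genes of the list were higher and 4 lower, with a median of 0.15. Tgfbr3l was low, at 1.35 ± 0.189 and 0.716 ± 0.321 CPM (SD, n = 3). Eng, which encodes endoglin, was the 1 gene that did not pass, with -0.14 (adjusted p = 0.113, edgeR).

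Of 13 tested Smad transducers and cofactors, 6 were higher and 0 lower (1 lower at an unadjusted p under 0.05 and 0 with DESeq2), with a median of 0.18. Ep300, the gene of a histone acetyltransferase, and Smad3 had the largest rises, with log2 fold changes of 0.605 and 0.31 (adjusted p = 0.00524 and 0.00711, edgeR). Foxh1, a Smad partner of the early embryo, had at most 4 counts in any sample. With library size scaling 1 gene was higher and 2 were lower, so the count for this list rests on the scaling. Without normal glucose replicate 3 or high glucose replicate 1, 3 were higher, and without normal glucose replicate 1, 5 were higher and 1 was lower. The 14 genes for negative regulators of receptors and Smads split into 3 higher and 4 lower, with a median of -0.016. Smad7, an inhibitory Smad that is itself induced by TGF-β, went from 32.0 ± 0.702 to 21.3 ± 0.962 CPM, or by -0.59 on the log2 scale (adjusted p = 2.31e-05, edgeR). Nedd4l, a ubiquitin ligase gene, had a log2 fold change of -0.42, and Pmepa1 and Skil, the other 2 lower genes and also known targets of the pathway, of -0.20 and -0.23. Smurf2, Bambi and Ski were the higher genes, with 0.30, 0.26 and 0.19. With library size scaling 0 of this list were higher and 6 lower. Without normal glucose replicate 3, or high glucose replicate 1 or 2, 0 were higher, and without high glucose replicate 3, 1 was higher and 2 were lower.

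Known TGF-β target genes went both ways. Of 24 tested, 12 were higher and 7 lower, with a median of 0.26. The largest rises were those of Comp, a cartilage and tendon matrix gene at 0.249 ± 0.0826 and 0.933 ± 0.0274 CPM, and of Col3a1, the gene of type III collagen, at 12420 ± 651 and 32510 ± 1660 CPM (SD, n = 3), with log2 fold changes of 1.91 and 1.39. The largest falls were those of Cnn1, a smooth muscle calponin gene, and Il11, a cytokine gene, with -1.02 and -0.66 (adjusted p = 1.41e-05 and 0.000133, edgeR). Edn1, Junb, Snai1 and Bhlhe40 were among the 5 that did not pass. Col1a1, Col1a2, Col3a1 and Postn of this list are also among the fibroblast markers, and Acta2, Tagln and Cnn1 among the smooth muscle markers. Of the 4 collagen and matrix genes, all were higher, and of the 3 contractile genes, all were lower. This split holds for these shared genes only. Ccn2, Snai2 and Tgfbi were also among the 7 lower target genes, with log2 fold changes of -0.51, -0.46 and -0.40.

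**Figure D5:**
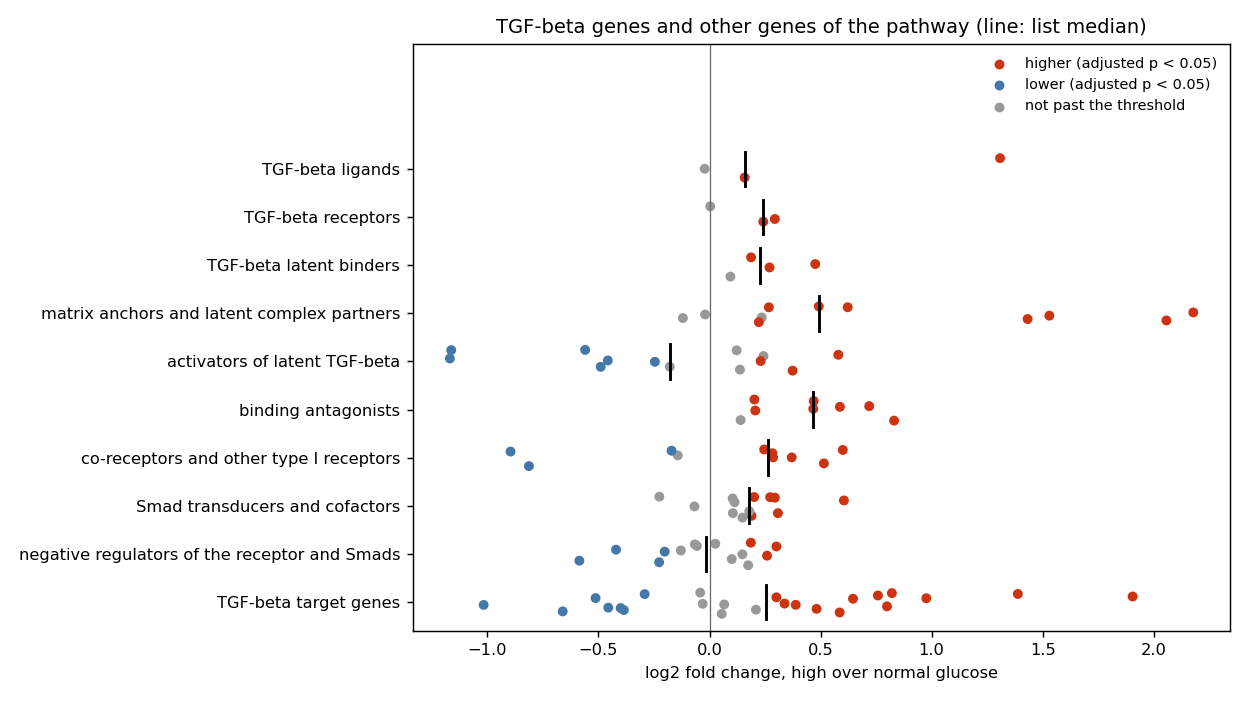
Log2 fold change (high over normal glucose) of each tested gene, 1 row per list, with the ligands, receptors and latent binders on top and the 7 other lists of the pathway below. Red points were higher and blue points lower at an adjusted p under 0.05, grey points did not pass, the vertical place of a point within its row has no meaning, and black lines are list medians. Lists for matrix anchors, binding antagonists and Smad transducers hold no blue point, nor do the rows of ligands, receptors and latent binders. The other lists hold both colors.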

How the data were processed

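Bulk RNA-sequencing of 6 cultures labelled as endothelial cells was used, 3 with 5 mmol/L (normal) and 3 with 20 mmol/L (high) glucose, with groups and replicate numbers taken from the labels. The authors trimmed reads with Trimmomatic, aligned them to GRCm38 (mm10) with HISAT2, obtained a read count per gene with StringTie and deposited these counts without normalization. Versions and the annotation release are not given in the sources used here. The methods name an Illumina HiSeq and the labels the DNBSeq platform. Of 55487 identifiers, 55141 had a symbol, and the other 346 held 0.034% of counts. Low values of 2 (9280 entries) were nearly as frequent as 1 (10842), so both reads of a pair may have been counted, and halved counts were tried. The confidence intervals and standard errors come from the edgeR fit and cover the spread between the 6 samples, which may be technical.

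The tests on counts used edgeR 4.0.16 under R 4.3.3. Low genes were removed with filterByExpr at a minimum count of 10 and a total of at least 15, which kept 19015 genes, followed by TMM normalization (factors 0.954 to 1.05) and the quasi-likelihood test on all 6 samples, with Benjamini-Hochberg adjustment over all tested genes and a threshold of 0.05. The fit was tested on simulated data. Normalized CPM are counts scaled by library size and TMM factor. Standard errors come from the test statistic. Pairs of replicates differed by more than sampling noise (chi-square per degree of freedom at least 9.64). Alternatives were RLE, upper quartile and library size scaling, 2 other filters, DESeq2 1.42.0, the likelihood ratio test, halved counts, the replicate block, removing the trend on GC content and length within each library with mgcv 1.9.3, both together, each sample left out, and a threshold of 0.01. The length of the coding transcript and the promoter motifs were chosen after seeing the data. Positions and lengths came from GENCODE M21 for GRCm38, start regions from RefSeq.

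The 10 genes, the lists and the markers were chosen with earlier results of these data known, so their counts carry no independent support. Genes named are the 10, the 2 largest rises and falls among called genes of each pathway list, genes under 10 counts, overlapping genes and the 3 most correlated with the largest rise. Other genes, such as Thbs1 and those spelling out small counts, were named after their values were seen. A target gene and an overlapping gene are not reported here.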

Additional observations from a re-analysis of the deposited data

How the results depend on the processing

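Over 17 alternative fits, the log2 fold changes of Tgfb2 (1.193 to 1.332), Ltbp3 (0.334 to 0.514) and Tgfbr3 (0.179 to 0.294) passed the test as higher throughout. Tgfb3 missed the threshold with RLE factors (0.146), upper quartile factors (0.115), library size alone (0.043), no filter (0.138) and halved counts (0.139), and lay between 0.115 and 0.168 with each sample left out. Ltbp1 missed it with upper quartile factors (0.144), library size alone (0.072), no filter (0.167), the GC and length trend removed (0.056) and that together with the replicate block (0.059), and lay between 0.146 and 0.215 with each sample left out. Tgfbr2 missed it with library size alone (0.127) and no filter (0.221), with a range of 0.15 to 0.275 over the fits that left out a sample, and Ltbp2 with library size alone (0.156), with a range of 0.209 to 0.309. Tgfb1 passed as lower with library size alone (-0.137).

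Values near 0 changed sign without passing the test. Tgfbr1 was -0.009 with RLE factors, -0.04 with upper quartile factors, -0.113 with library size alone, -0.018 without a filter, -0.014 with at least 1 CPM in 3 samples, -0.017 with halved counts and -0.003 with DESeq2, and lay between -0.062 and 0.072 with each sample left out. Ltbp4 was -0.021 with library size alone and -0.009 with the GC and length trend removed, alone or with the replicate block.

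With library size alone, 1819 genes were higher and 4884 lower, as were 3 and 1 of the 10 genes, 29 pathway genes were higher, and 72.9% of calls were lower, against 46.2% with TMM and 56.5% with upper quartile factors. No filter gave 4 of the 10 genes higher, with 31922 genes tested. At a threshold of 0.01, 1946 genes were higher and 1671 lower, with 4 of the 10 higher. With each sample left out, genes called higher ranged from 1988 to 3149, and from 3 to 6 of the 10. For the other changes the cause was not tested.

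A pairing of the samples by replicate number was not seen across genes, and 3 samples per group cannot settle whether there was one. Deviations of same-numbered samples correlated at -0.0248, 0.00377 and 0.0127 across genes, and not every sample correlated best with its own number. With the replicate block 2418 genes were lower and 2909 higher, and 6 of the 10 genes were higher, since Tgfb3 had 0.159 with an adjusted p of 0.0564 from edgeR. The block alone changed no other call among the 10.

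With the length of the coding transcript, shares in normal glucose were 54.3% for Tgfb1, 4.73% for Tgfb2, 41.0% for Tgfb3, 9.20% for Tgfbr1, 28.8% for Ltbp1, 37.7% for Ltbp2, 27.1% for Ltbp3 and 6.47% for Ltbp4, against 34.9%, 4.24%, 60.9%, 8.58%, 24.4%, 45.2%, 22.5% and 7.84% with merged exons. Each of the 10 genes had at least 1095 counts per sample, and 3 samples per group limit what small differences the test can call.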
